A study of Mus musculus with 6 samples.

Results

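The 649 probes described here are all non-control probes of the array whose names begin with mouselincRNA, out of 60915 probes measured. Each name carries a number, taken here as a locus, a strand sign and a probe index. There were 332 loci. For 317 of them the array held a probe to the plus strand and another to the minus strand, and 15 had 1 strand only, so that 322 probes read plus and 327 read minus strands. Each was spotted once per array. RNA came from ATDC5, a mouse chondrogenic cell line, as 3 samples labelled differentiated and 3 labelled undifferentiated, each hybridised to its own Agilent array. According to the labels, chondrogenic induction lasted 14 days with 1% ITS, a mix whose transferrin is given as 5.5 µg/ml and sodium selenite as 5 ng/ml. They print its insulin as 0 µg/ml, so the insulin dose is not known here. The labels do not say how long the undifferentiated cells were cultured, and they give the same treatment text for every sample. All samples came from 1 cell line kept in medium with serum, and nothing in the labels says whether replicates were separate cultures, so p-values measure the spread between these samples only. Whether the cells carried cartilage markers such as Sox9, Col2a1 or Acan could not be checked, because the files name no probe for them.

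Long intergenic non-coding RNAs (lincRNAs) are transcripts without an evident protein product that arise from DNA between coding genes. Many were first catalogued from chromatin marks of transcribed regions, which show that a region is transcribed but not which strand is read. Probes to each strand allow the transcribed strand to be told, provided that labelling keeps the strand. The labelling protocol describes random priming along the whole transcript and does not state whether strand was kept. Ribosomal RNA was removed before labelling. In cartilage and other mesenchymal lineages some lincRNAs are known to act on transcription factors or as RNA scaffolds, but the files pair none of these numbers with a gene or a position, so no role is given for any member. Probe sequences and positions were not used here.

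Slide 1 carried differentiated arrays 1, 2 and 3 together with undifferentiated array 3, while slide 2 carried the remaining undifferentiated arrays, 1 and 2. Differentiated arrays 2 and 3 and undifferentiated array 3 shared a scan, undifferentiated arrays 1 and 2 another, and differentiated array 1 was scanned alone. No spot was saturated. The median signal over all non-control spots was 44.1 to 60.5 intensity units per array, against 12.1 to 16.8 on the mouselincRNA probes and 3.32 to 4.42 on negative controls. The number of arrays limits the precision of every value.

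Detection was read from the scanner software's own test of whether a spot stands well above background. On the differentiated arrays 1, 2 and 3, 234, 277 and 247 of the 649 probes passed it. On the undifferentiated arrays 1, 2 and 3 the numbers were 298, 306 and 270. The groups overlapped, because differentiated array 2 lay above undifferentiated array 3. The means were 253 ± 22.1 and 291 ± 18.9 probes (SD, n = 3 each), a difference of -38.7 that an exact permutation test over arrays did not separate (two-sided p = 0.2, where 0.1 is the smallest this design allows). The difference was -17.3 probes with the slide as a block or within slide 1 and -8 with the scan as a block or within the shared scan. Without differentiated array 2 it was -50.8, and it was -49.3 to -29.3 without each of the other arrays. The share detected was 38.9% ± 3.40 in differentiated and 44.9% ± 2.91 in undifferentiated cells, beside 65.5% ± 2.59 and 68.8% ± 2.48 over all probes (SD, n = 3 each). The members' share minus that of all probes lay between -28.3 and -23.4 percentage points on the 6 arrays, and was -26.6 ± 1.77 in differentiated and -24.0 ± 0.569 in undifferentiated cells, without overlap (exact permutation p = 0.1, two-sided, the smallest possible).

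Both strands were detected at like rates. Of the plus-strand probes, 38.7% ± 4.01 passed in differentiated and 44.8% ± 2.00 in undifferentiated cells (SD, n = 3 each). The minus-strand probes gave 39.1% ± 2.80 and 45.0% ± 3.82. The plus share minus the minus share ranged from -1.74 to 1.87 percentage points over the 6 arrays, and its mean did not move with differentiation beyond the spread (-0.427 ± 1.22 against -0.130 ± 1.84, exact permutation p = 0.8, two-sided, n = 3 each). Most members were seen on every array or on none, as 191 members (29.4%) were well above background on all 6 arrays, 296 (45.6%) on 0 arrays, and the other 162 on 1 to 5. Over all probes 58.0% were detected on all 6 arrays and 24.1% on none.

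Of the other probes named for lincRNAs, 1104 are named humanlincRNA and carry numbers and strand signs in the same form. The files do not say what they are meant to read in mouse RNA. They were detected at 38.0% ± 2.55 in differentiated and 42.2% ± 3.22 in undifferentiated cells (SD, n = 3 each). The mouse share exceeded the human share on each of the 6 arrays, by 0.276 to 3.85 percentage points. The difference of these shares was 0.979 ± 0.848 points in differentiated and 2.68 ± 1.37 points in undifferentiated cells (exact permutation p = 0.2, two-sided, n = 3 each). The 83 probes named MM9LINCRNAEXON were detected more often, at 49.0% ± 3.03 in differentiated and 53.0% ± 2.41 in undifferentiated cells (SD, n = 3 each).

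Members were kept for testing if they were well above background on at least 3 of the 6 arrays, whatever the group. This held for 285 of 649 (43.9%), 144 plus-strand and 141 minus-strand probes, against 68.7% of all probes. Levels below are log2 signal relative to each array's 75th percentile. The kept members were dim. The median of their mean levels was -2.27 (quartiles -3.17 and -0.99), against -0.97 over all 41838 kept probes (-2.35 and 1.05). By signal, 40.7% of the kept members fell in the lowest quintile of all kept probes and 3.51% in the highest. The median level of the kept plus-strand probes was -2.20, -2.16 and -2.44 on the differentiated and -2.16, -2.38 and -2.27 on the undifferentiated arrays 1 to 3. The minus-strand probes had medians of -1.90, -2.01 and -2.25, and of -1.98, -2.18 and -2.16. The groups overlapped on both strands. The difference of these array medians, differentiated minus undifferentiated, was 0.0088 for plus (exact permutation p = 0.9, two-sided) and 0.058 for minus (p = 0.8, exact permutation), and both turned sign under other settings.

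The brightest member was mouselincRNA0161-_P1. Its level was 7.17, 7.39 and 6.87 on the differentiated and 7.48, 7.42 and 7.28 on the undifferentiated arrays. The ranges overlapped, and the log2 difference of -0.25 (standard error 0.163) did not pass (limma, adjusted p = 0.401); quantile normalization (0.035) and the deposited log2 values (0.013) put it above zero. The plus-strand probe of this locus was well above background on none of the 6 arrays. The brightest plus-strand members were mouselincRNA0706+_P1, at 3.89, 3.73 and 3.89 in differentiated and 3.58, 3.93 and 3.96 in undifferentiated cells, and mouselincRNA0513+_P1, at 3.15, 3.26 and 3.30 against 3.27, 3.19 and 3.98. Their differences were 0.013 (standard error 0.148) and -0.24 (standard error 0.219), neither past the threshold (limma, adjusted p = 0.969 and 0.546), and the sign of each turned under another setting. For mouselincRNA0513+_P1 the slide as a block gave -0.74 (limma, adjusted p = 0.0611) and the scan as a block -0.70. The level of undifferentiated array 3 stood above the other 5 for mouselincRNA0513+_P1. Its minus-strand probe was detected on no array, whereas mouselincRNA0706-_P1 was detected on all 6, at -1.40 to -1.06.

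A change after differentiation was called at 5 loci. Testing asks which of these transcripts differ in level between differentiated and undifferentiated ATDC5 cells. Of the 285 kept members, 5 (1.75%) passed limma's test at an adjusted p under 0.05, adjusted over all 41838 kept probes, where 13.3% of all kept probes passed. Higher after differentiation were 3 members (all kept probes: 5.4%), and 2 were lower (all kept probes: 7.9%). By strand, 1 of 144 plus-strand and 4 of 141 minus-strand members passed; the difference between strands in this count was not tested. The humanlincRNA class had 10 calls among 453 kept probes (2.21%), and the MM9LINCRNAEXON class 3 among 43 (6.98%). At an unadjusted p under 0.05 there were 18 members (6.32%), against 26.1% of all kept probes. The members' median log2 difference was -0.047, beside -0.048 over all kept probes, and the mean was -0.0091. For the plus strand the median was -0.016 and the mean 0.013; for the minus strand they were -0.058 and -0.032.

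The members' share of calls was below that of all kept probes in each of the 5 signal quintiles. In the lowest, 0 of 116 members passed (9.05% of all kept probes in it), in the second 0 of 62 (9.51%), in the third 1 of 59 (11.4%), in the fourth 3 of 38 (15.6%) and in the highest 1 of 10 (20.9%). The highest holds too few members to be read alone. The residual SD between replicates had a median of 0.284 over the kept members and 0.208 over all kept probes, and in the lowest quintile 0.369 against 0.325. What part this spread has in the low count was not tested. Groups without overlap were found for 38 members (13.3%), 12 higher and 26 lower, against 32.9% of all kept probes (13.7% higher and 19.2% lower). A fitted difference of 2-fold or more was found for 10 members upward and 3 downward (all kept probes: 3.73% and 2.85%). Only mouselincRNA0052-_P1 and mouselincRNA1606-_P1 among them were called. Some of these differences rest on a single spot not well above background. Upward, mouselincRNA0086+_P1, mouselincRNA1275-_P1 and mouselincRNA1595+_P1 had such a spot on undifferentiated array 2. Downward, mouselincRNA0009-_P1 had one on differentiated array 3.

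Leaving out 1 array at a time moved the number of members called. It was 9 without undifferentiated array 1 (all kept probes: 11.5%), 4 without differentiated array 2 (6.98%), and 3 without differentiated array 1 (7.56%), differentiated array 3 (14.2%). Undifferentiated arrays 2 and 3 also gave 3 each when left out (7.33% and 7.97%).

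The largest fall among members detected on all 6 arrays was that of mouselincRNA1606-_P1. Its level was 4.43, 4.45 and 3.66 on the differentiated arrays and 5.63, 5.50 and 5.68 on the undifferentiated arrays. The groups did not overlap, and differentiated array 3 was the lowest. The means were 4.18 ± 0.449 and 5.61 ± 0.093 (SD, n = 3 each). The fitted fall was -1.43 on the log2 scale (standard error 0.227), which is 2.69-fold (limma, adjusted p = 0.00776). The plus-strand probe of locus 1606 was not well above background on any array, so a change on that strand could not be read. Leaving out any 1 array kept the call. The slide as a block ended it at -1.51 (limma, adjusted p = 0.0521), as did the scan as a block and the fit within slide 1, in a range of adjusted p from 0.00064 to 0.0921 over 18 alternatives.

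The clearest rise was that of mouselincRNA0052-_P1. It stood at 1.03, 1.11 and 1.25 on the differentiated and at 0.01, 0.21 and 0.11 on the undifferentiated arrays. All 3 differentiated arrays lay above all undifferentiated ones, and no array stood apart within its group. It rose by 1.02 on the log2 scale (standard error 0.127), which is 2.02-fold (limma, adjusted p = 0.00293). This member kept its call without any 1 array. It also did so with the slide as a block, where only undifferentiated array 3 is set against differentiated arrays. It missed the threshold with the scan as a block (limma, adjusted p = 0.0795), within slide 1 (0.0544) and within the shared scan (0.0875), at differences of 1.07, 1.02 and 1.07. The plus-strand probe of the same locus was dim but kept, at -3.20, -3.19 and -3.17 against -2.98, -3.13 and -3.31, a difference of -0.04 (limma, adjusted p = 0.87) whose sign turned with the normexp background (0.10).

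The minus-strand probe mouselincRNA0901-_P1 rose as well. It read 0.70, 0.75 and 1.02 in differentiated and -0.63, 0.09 and 0.02 in undifferentiated cells. The groups did not overlap, with undifferentiated array 1 the lowest. The difference was 1.00 (standard error 0.215; limma, adjusted p = 0.0248), and leaving out differentiated array 1, 2 or 3 ended the call (limma, adjusted p = 0.0626, 0.0751 and 0.0649). The plus-strand probe of locus 0901 was detected on no array. With the slide as a block the difference was 0.81 (limma, adjusted p = 0.185), and without a filter on dim probes the call also ended (0.0552).

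The only plus-strand call was mouselincRNA1235+_P1. Its level was 0.66, 0.47 and 0.45 in differentiated and 0.17, -0.26 and -0.43 in undifferentiated cells, again without overlap. It rose by 0.70 (standard error 0.179), or 1.63-fold (limma, adjusted p = 0.0449). The call ended without any array other than undifferentiated array 1, and in the percentile over detected probes (limma, adjusted p = 0.0582). It also ended without a filter on dim probes (limma, adjusted p = 0.0932) and with the slide or scan as a block (0.0629 and 0.157). The fits within slide 1 and within the shared scan ended it too. It held in 7 of the 18 alternatives, with the lowest adjusted p, 0.0157 in limma, from the normexp background. The minus-strand probe of this locus was bright enough to be seen on all 6 arrays, at 0.47, 0.47 and 1.098 against 0.82, 0.85 and 0.99, and did not pass (-0.21, standard error 0.196, limma, adjusted p = 0.564).

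The remaining fall was small. mouselincRNA0544-_P1 stood at -1.47, -1.35 and -1.61 in differentiated and -0.76, -0.96 and -0.86 in undifferentiated cells, without overlap and with an even spread. The difference was -0.61 (standard error 0.130), or 1.53-fold (limma, adjusted p = 0.0233). Leaving out any array other than differentiated array 3 ended the call. So did the blocks by replicate number, slide and scan (limma, adjusted p = 0.0666, 0.132 and 0.270). Without a filter on dim probes it ended as well (limma, adjusted p = 0.0576). The plus-strand probe, at -0.45, -0.49 and -0.95 against -0.61, -0.57 and -0.53, gave -0.06 (limma, adjusted p = 0.855).

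The rule for large differences on all 6 arrays without overlap took 3 further members, and none of them passed limma's test. mouselincRNA0154+_P1 was at -2.45, -2.33 and -2.43 against -2.48, -2.59 and -3.37 (difference 0.41, adjusted p = 0.345 in limma). The highest undifferentiated array lay just below the lowest differentiated one, and undifferentiated array 3 was far lower than either. With the slide as a block the difference was 0.96 (adjusted p = 0.0294 in limma). mouselincRNA1337-_P1 was at -3.16, -3.09 and -3.19 against -2.03, -2.82 and -3.04 (-0.52, adjusted p = 0.267 in limma). Undifferentiated array 1 stood above all other arrays, and without it the difference was -0.21. The slide as a block gave -0.10 and the normexp background -0.077. The plus-strand probe of locus 1337, detected on 4 arrays, gave -0.77 (adjusted p = 0.257 in limma), and -0.070 with the normexp background. mouselincRNA0362+_P1 was at 0.92, 0.92 and -0.31 against 0.95, 0.96 and 1.11 (-0.49, adjusted p = 0.409 in limma), with differentiated array 3 alone far below. The minus-strand probes of loci 0154 and 0362 were detected on no array.

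Which members passed differed with how slide and scan were treated. Undifferentiated array 3 is the only undifferentiated array that shares a slide or scan with differentiated ones. A block by slide gave 8 calls in limma (all kept probes: 7.66%), 7 higher (4.57%) and 1 lower (3.09%), of which mouselincRNA0052-_P1 alone was among the 5. A block by scan gave 5 calls (all kept probes: 3.62%), 4 higher (2.54%) and 1 lower (1.09%), and shared 0 of them with the fit without a block. Within slide 1 it called 12 (all kept probes: 5.81%), 11 higher (3.98%) and 1 lower (1.83%). Within the shared scan it called 13 (all kept probes: 5.61%), 10 higher (3.85%) and 3 lower (1.76%). Both of these fits take the spread of the single undifferentiated array to be that of the differentiated arrays. With the slide or scan as a block, the difference likewise came only from undifferentiated array 3 against differentiated arrays on its slide or scan. Undifferentiated arrays 1 and 2 then entered only the spread. Undifferentiated array 3 stood apart at each of the 7 members gained with the slide as a block. mouselincRNA0303-_P1 read -0.27, -0.52 and -0.69 in differentiated cells, -0.57 and -0.63 on undifferentiated arrays 1 and 2, and -2.69 on undifferentiated array 3. Its difference was 0.81 without a block (limma, adjusted p = 0.416) and 2.20 with the slide as a block (0.00434). mouselincRNA0364-_P1 ran the other way, at -2.71, -2.91 and -2.96, then -2.74 and -2.84, then -1.06 on undifferentiated array 3, with differences of -0.65 (limma, adjusted p = 0.433) and -1.81 (0.0053). Both were chosen after their values were seen. The other calls gained with the slide as a block were mouselincRNA0013-_P1, mouselincRNA0109+_P1, mouselincRNA0154+_P1, mouselincRNA1049-_P1 and mouselincRNA1312-_P1, each with its lowest level on undifferentiated array 3. In all, 21 members (7.37% of those kept), 9 plus and 12 minus, passed without a block or in at least 1 of the 18 alternatives, as did 24.2% of all kept probes.

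The 317 loci with both strands show how the strands compare within a locus. On differentiated arrays 1, 2 and 3 both strands were well above background at 40, 53 and 42 loci, and on undifferentiated arrays 1, 2 and 3 at 66, 66 and 53. Neither strand was detected at 126, 97 and 115 loci in differentiated and at 89, 81 and 103 in undifferentiated cells. Exactly 1 strand was seen at 47.6% to 53.6% of loci on the 6 arrays. Both strands were seen at 45.0 ± 7.0 loci in differentiated and 61.7 ± 7.51 in undifferentiated cells (SD, n = 3 each; exact permutation p = 0.2, two-sided), where differentiated array 2 and undifferentiated array 3 were equal. Loci with the plus strand alone numbered 77.7 ± 6.03 and 80.7 ± 1.53, and those with the minus strand alone 81.7 ± 2.31 and 83.7 ± 5.03 (exact permutation p = 0.6 and 0.9, two-sided). Detection over all probes ranged from 62.6% to 67.5% in differentiated cells and from 66.1% to 71.0% in undifferentiated cells, which overlapped (exact permutation p = 0.3, two-sided, n = 3 each), and its part in the count of loci was not tested.

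By the filter over all 6 arrays, both strands were kept at 60 loci (18.9%), 1 strand at 162 (51.1%) and neither at 95 (30.0%). Of the 142 loci whose plus strand was kept, 42.3% also had the minus strand, and of the 175 others 45.7% did. Among 547 humanlincRNA loci with both strands these shares were 47.7% and 39.6%. At 47 loci the plus strand was detected on all 6 arrays and the minus strand on none, and at 48 the reverse held, which makes 30.0% of the 317. The same pattern held at 26.9% of the humanlincRNA loci and at 41.7% of the 12 loci of probes named MM9LINCRNAEXON, and the difference between classes was not tested. Among the members already described, loci 0154, 0362 and 0513 were of the first kind and loci 0161, 0901 and 1606 of the second. At 27 loci both strands were detected on all 6 arrays, and 2 of these, 0544 and 1235, held a call. No locus exchanged its strand between the groups, in the sense that 1 strand was seen on all 3 arrays of a group and the other strand on all 3 of the other group with both partners absent.

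Among the 60 loci with both strands kept, 3 held a called probe (0052, 0544 and 1235), against 4.85% of all 165 strand pairs with both probes kept, these loci included. The fitted difference had the same sign on both strands at 36 loci, 16 above and 20 below zero, and opposite signs at 24. The absolute difference between the strands' changes had a median of 0.31. Across these 60 loci the log2 differences of the strands correlated at 0.19, a description over loci that share the same 6 arrays and their scaling. Whether the strands changed unequally was tested as an interaction, the plus-strand change minus the minus-strand change, in limma over all 165 strand pairs on the array with both probes kept. Of the 60 mouselincRNA loci, 0 passed (all pairs: 0.606%). At an unadjusted p under 0.05 there were 5, against 6.67% of all pairs. The nearest was locus 0052, where the plus-strand change was lower than the minus-strand change by 1.06 on the log2 scale (standard error 0.258, limma, unadjusted p = 0.00467, adjusted p = 0.257). At locus 1235 the plus-strand change exceeded the minus-strand change by 0.91 (standard error 0.347, limma, adjusted p = 0.637). At locus 0544 it did so by 0.55 (standard error 0.253, limma, adjusted p = 0.637). A call on 1 strand and none on the other is therefore not shown to be a difference between the strands at any of these 3 loci. With the slide as a block, locus 0303 passed at -2.70 (limma, adjusted p = 0.0168; all pairs: 5.45%) and within slide 1 (0.0485; all pairs: 1.82%); without undifferentiated array 3 it was 0.28.

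At locus 0567 the fitted differences of both strands were above zero. The plus-strand change minus the minus-strand change was -0.68 (standard error 0.255, limma, unadjusted p = 0.0319, adjusted p = 0.637), which did not pass. The minus-strand probe read -1.56, -1.90 and -1.99 in differentiated and -2.21, -3.76 and -4.03 in undifferentiated cells. The plus-strand probe read -1.94, -2.01 and -2.14 against -1.73, -3.12 and -3.75. On both strands undifferentiated arrays 2 and 3 lay far below the other 4, whereas undifferentiated array 1 was close to the differentiated ones and above them on the plus strand. Each strand was well above background on 5 arrays only, so not every value here is a measured level. The differences were 1.52 (standard error 0.451) and 0.84 (standard error 0.464), neither past the threshold (limma, adjusted p = 0.073 and 0.32). Both strands passed without undifferentiated array 1, at 2.08 and 1.40 (limma, adjusted p = 0.00284 and 0.0155), within slide 1 (0.0145 and 0.0155) and within the shared scan (0.00251 and 0.00986). The minus-strand probe also passed with the normexp background, at 0.67 (limma, adjusted p = 0.0253). The plus-strand difference was 0.38 with that background and did not pass (limma, adjusted p = 0.186). At locus 0325 the plus-strand probe read -3.74, -3.34 and -3.21 against -3.43, -5.74 and -6.02 and the minus-strand probe -2.23, -2.39 and -3.49 against -1.98, -2.69 and -2.22. The plus-strand probe was well above background on 3 arrays only, and on neither undifferentiated array 2 nor 3, so its low values there are not measured levels. The fitted difference between the strands' changes, 2.04 (standard error 0.704), did not pass (limma, adjusted p = 0.637) and was 0.44 with the normexp background. These loci were chosen after their values were seen.

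No member was well above background on all 3 differentiated and none of the undifferentiated arrays (all probes: 0.309%). The reverse held for 6 members, 4 plus and 2 minus (0.924%; all probes: 0.749%), and 0 of these 6 passed limma's test. They were mouselincRNA0172+_P1, mouselincRNA0185+_P1, mouselincRNA0238+_P1, mouselincRNA0238-_P1, mouselincRNA0614-_P1 and mouselincRNA1425+_P1. Their levels in undifferentiated cells lay between -3.87 and -2.61. Each differentiated array was given the dimmest signal that passed as well above background on it, or the probe's own where that was higher. Against this bound the largest of these differences was at least 1.42-fold lower, for mouselincRNA0172+_P1 (limma, adjusted p = 0.199). The largest fitted difference was that of mouselincRNA1425+_P1, at -3.57, -4.61 and -5.14 against -3.32, -3.52 and -3.54, for which the bound is 1.06-fold (limma, adjusted p = 0.144). With the normexp background the difference was -0.043. It passed without differentiated array 1 (adjusted p = 0.0133 in limma) and within the shared scan (0.0479). Its minus-strand probe was detected on all 6 arrays and gave -0.44 (limma, adjusted p = 0.295). Locus 0238 was the only locus of the 6 members with both strands seen in undifferentiated cells alone.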

How the data were processed

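Spot intensity values were deposited by the authors as Agilent Feature Extraction 11.0.1.1 output, per the file headers (the submitters' processing notes name the same version): background-subtracted and detrended within each array, not scaled between arrays. The detection flags come from the same files. The log2 values of the deposited series table, with a normalization that the files do not describe, served as an alternative. Outlier spots were left out (2 of the member spots), spots of a probe were averaged on the log2 scale, and each array's 75th percentile over non-control spots was subtracted. The 15 negative-control probes were left out. A probe was kept if well above background on at least 3 of 6 arrays. limma 3.58.1 (R 4.3.3; lmFit, eBayes) was fitted on all 41838 kept probes, two-sided, without a block, with Benjamini-Hochberg adjustment and a threshold of 0.05; strand pairs were fitted on their within-array differences. Single values were compared by exact permutation over arrays. The fits were run on simulated data with independent noise for each probe. These data held no slide or scan effect, so the check does not cover such effects. The rule for named items took called members, the 4 largest differences each way on all 6 arrays without overlap, the 2 brightest per strand, the largest member seen in 1 group only, loci with both strands kept, and other-strand probes. The 60 loci with both strands kept are given by counts, with values for a few. Members, lists and rules were chosen with earlier results of these data known. Alternatives were normexp (offset 50) on median signals, quantile normalization, the percentile over detected probes, the deposited table, other filters, blocks by replicate number, slide and scan, fits within slide 1 or the shared scan, an intensity trend, and leaving out each array.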

Additional observations from a re-analysis of the deposited data

How the results depend on the processing

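The 3 higher calls became 1 without a filter on dim probes (all probes: 2.9%), 7 with the slide as a block (all kept probes: 4.57%), 11 within slide 1 (3.98%) and 10 within the shared scan (3.85%), and 1 to 8 without 1 array (3.43% to 5.08%). The 2 lower calls became 1 without a filter (all probes: 3.46%), with the replicate, slide and scan blocks (5.22%, 3.09% and 1.09%) and within slide 1 (1.83%), and 1 to 2 without 1 array (3.54% to 9.55%). The shares of all kept probes called in either direction, for the counts by strand, were 13.9% with the percentile over detected probes, 7.66% with the slide block, 5.81% within slide 1, 5.61% within the shared scan and 6.98% to 14.2% without 1 array, and 6.36% of all probes without a filter. Calls on the plus strand, 1 as reported, were 0 with the percentile over detected probes and without a filter, 2 with the slide block, 5 within slide 1, 6 within the shared scan and 0 to 5 without 1 array. Calls on the minus strand, 4 as reported, were 2 without a filter, 7 within slide 1 and within the shared scan, and 2 to 4 without 1 array. All calls together numbered 9 without undifferentiated array 1, 4 without differentiated array 2, and 3 without each of the other arrays. Loci with unequal strands, 0 as reported, were 1 with the slide block and within slide 1. For these changes the cause was not tested. Some fits used fewer arrays, and the fit without a filter made a larger number of tests. The difference of plus-strand array medians turned below zero with quantile normalization (-0.00064), the authors' table (-0.0020), the filter on all 6 arrays (-0.023), the scan block and the shared scan (-0.027) and without 1 array (-0.047 to 0.094). That of the minus strand turned without a filter (-0.020), with the filter on all 6 arrays (-0.052) and without 1 array (-0.020 to 0.16). mouselincRNA0706+_P1 turned with normexp (-0.0017), the slide block and slide 1 (-0.13), the scan block and shared scan (-0.15), and without 1 array (-0.11 to 0.082). mouselincRNA0513+_P1 turned without undifferentiated array 3 (0.0043, in a range down to -0.39 without 1 array, and -0.74 with the slide block), and mouselincRNA0161-_P1 with quantile normalization (0.035) and the authors' table (0.013). mouselincRNA0052+_P1 turned with normexp (0.10), the slide block and slide 1 (0.13), the scan block and shared scan (0.13) and without undifferentiated array 1 (0.038), and mouselincRNA0544+_P1 without differentiated array 3 (0.10). Same-numbered samples deviated together with correlations of 0.14, -0.087 and 0.034, no sign of pairing; with the replicate number as a block, 4 members were higher (all kept probes: 4.3%) and 1 lower (5.22%), and mouselincRNA0567-_P1 was among those that passed (limma, adjusted p = 0.0405). The intensity trend was not run on strand pairs or array medians. Dim signal limits what can be read for most members.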

Other observations

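The members' levels correlated between arrays in overlapping ranges within and between the groups. Over the 285 kept members, levels on arrays of one group correlated at 0.921 to 0.968 and levels on arrays of different groups at 0.880 to 0.974, and the closest arrays of all were differentiated array 2 and undifferentiated array 1. These values are a description across probes of the same 6 arrays. Mean levels of the kept members ran from -4.26 to 7.27, and this range enters every correlation. The values therefore cannot show whether the members separate the groups.

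Single arrays fell far below the rest at some members. With a gap of over 2 log2 units to the nearest other array, a limit chosen after seeing the data, 10 of the 285 kept members (3.51%) had such a drop, 5 on differentiated array 3 and 5 on undifferentiated array 2, against 1.06% of all kept probes measured on every array. Over all those probes, 223 of 439 drops were on undifferentiated array 2, 127 on differentiated array 3 and 70 on undifferentiated array 3. The members were dimmer, and the shares were not matched for signal. None of the 10 low spots was well above background. mouselincRNA1595+_P1 stood at -6.14 on undifferentiated array 2 and between -1.41 and -0.70 on the other 5, which gives a fitted difference of 1.61 (limma, adjusted p = 0.508). None of the 10 was called. Of the 45 members detected on exactly 5 arrays, 17 were missing on differentiated array 3, 14 on differentiated array 1 and none on undifferentiated array 1, and of the 45 detected on exactly 1 array, 17 were seen on undifferentiated array 2.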
